A study of Homo sapiens with 15 samples.

Results

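The BCL2 family sets whether a cell commits to death through its mitochondria, and 10 of its genes were followed here through loss and return of EWS/FLI in Ewing sarcoma cells. The genes were given as a list: BCL2, BCL2L1, MCL1 and BCL2A1, whose proteins hold apoptosis back, BAX and BAK1, which perforate the outer mitochondrial membrane, and PMAIP1, BCL2L11, BBC3 and BID, the BH3-only members. Each was matched by its Ensembl identifier to 1 of the 57820 rows of the gene count table. All 10 were among the 28793 genes tested, which averaged at least 1 count per library. When apoptosis is triggered, BH3-only proteins bind the anti-apoptotic members or engage BAX and BAK1 directly. Freed BAX and BAK1 form pores, cytochrome c leaves the mitochondria, and the apoptosome activates caspases. Transcript levels are only one layer of this control, since several members, MCL1 and PMAIP1 among them, make short-lived proteins.

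EWS/FLI is the fusion oncoprotein of Ewing sarcoma, with an amino-terminal EWS portion that regulates transcription and the ETS DNA-binding domain of FLI1. RNA was sequenced from A673, an established Ewing sarcoma cell line, in 5 conditions of 3 libraries each. iLuc cells carried an shRNA against luciferase and an empty vector, and so kept their endogenous fusion (endo-EF). The other 4 conditions shared the shRNA against EWS/FLI: iEF cells received the empty vector, WT-EF cells a cDNA of wildtype EWS/FLI, Δ22 cells a construct without the EWS domain, and DAF cells EWS/FLI with tyrosines of its EWS domain replaced by alanine. The shRNA was delivered on day 1, puromycin (2 µg/mL) was begun on day 2 and the cDNA was delivered on day 5. Double selection with hygromycin B (400 µg/mL) ran from day 6 to day 16, so every value describes cells that had survived selection. The conditions are those of a single cell line and of retrovirally driven cDNAs, and the 3 replicates of a condition measure the spread between repeats of the procedure in that line.

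Each library held between 28659475 and 41859880 gene counts. FLI1, whose reads come from the endogenous fusion and the cDNA alike, stood at 48.0, 47.8 and 52.4 CPM (counts scaled to a fixed TMM-adjusted library total) in iLuc and at 12.9, 15.5 and 15.3 CPM in iEF (log2 fold change 1.77, SE 0.10, edgeR adjusted p = 7.94e-09). In WT-EF it was 17.6 ± 1.39 CPM (mean ± SD, n = 3), which did not pass the test against iEF (adjusted p = 0.0538). The paper describes the shRNA as directed at an untranslated region of EWS/FLI, and does not say how much of it the cDNAs carry. A cDNA may thus cover less of the exons counted, so FLI1 CPM in iLuc and WT-EF are not like measures of the fusion. FLI1 was called higher than iEF in Δ22 (31.2 ± 6.08 CPM, adjusted p = 0.000446) and DAF (24.3 ± 2.64 CPM, adjusted p = 0.000335), and WT-EF was lower than DAF (adjusted p = 0.00264), so the constructs compared differ in FLI1 level, and its part in the results was not tested. NR0B1, an established EWS/FLI target, gave mean levels of 55.0 CPM in iLuc, 5.70 in iEF, 49.2 in WT-EF, 10.7 in Δ22 and 28.7 in DAF. Mean CPM in iLuc, iEF and WT-EF was 467, 22.8 and 300 for PRKCB and 213, 6.87 and 140 for LIPI. In the same order it was 182, 46.0 and 163 for STEAP1 and 202, 18.1 and 131 for BCL11B. For NKX2-2 it was 5.23, 0.943 and 2.35, and for CCND1 1746, 1810 and 2072. Of the other Ewing sarcoma markers examined, PRKCB, LIPI, STEAP1, BCL11B, NKX2-2 and CCND1 were detected in every library, while CD99, which the annotation lists on both sex chromosomes, was at or near 0 (at most 0.0782 CPM). Of the 12 markers of leukocytes, epithelium, endothelium and melanocytes that were matched, 10 stayed at or below 1.01 CPM in every library, and the exceptions were KRT8 (6.26 to 19.8 CPM) and MITF (0.806 to 3.06 CPM). Replicate 3 stood apart in Δ22, WT-EF and DAF: its chi-square per gene was 71.8 and 83.2 against the other Δ22 libraries, which gave 42.3 with each other. It was 46.7 and 74.2 against 31.3 in WT-EF, and 39.1 and 48.9 against 22.3 in DAF. Values without these libraries are given beside each result whose call they change.

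The ETS domain of FLI1 recognises a GGAA core, so the starts of the genes were read for it. RefSeq promoter windows, from 250 bases before to 50 after each annotated start on GRCh38.p14, matched 9 members, all but MCL1. GGAA or its reverse complement TTCC was present in 95.5% of all 35116 windows of this length, with a median of 3 matches, so its presence alone set no gene apart. The extended form GGAAGT (reverse complement ACTTCC, overlapping GGAA) was in 22.8% of windows, CCGGAAGT (reverse complement ACTTCCGG, overlapping both) in 4.14%, and a tandem GGAAGGAA (reverse complement TTCCTTCC) in 3.67%. Stretches from 4 members are shown because the results turn on these genes, in both directions: BCL2, higher with wildtype EWS/FLI, and BCL2L1, PMAIP1 and BCL2A1, lower with endo-EF. Capitals mark GGAA or TTCC. Those of BCL2, BCL2A1 and PMAIP1 cover positions -250 to -1, and that of BCL2L1 runs from -5 to 25, counted from the annotated start at 1.
BCL2 (chr18:63319770-63320019, minus strand): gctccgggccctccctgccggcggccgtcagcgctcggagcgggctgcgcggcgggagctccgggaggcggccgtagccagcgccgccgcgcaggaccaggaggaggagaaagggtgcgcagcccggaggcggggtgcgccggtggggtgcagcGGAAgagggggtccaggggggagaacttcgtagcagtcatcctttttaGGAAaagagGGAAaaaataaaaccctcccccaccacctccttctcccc
BCL2L1 (chr20:31723939-31723968, minus strand): gcgttgccgcggcaccGGAAgtgactgagc
PMAIP1 (chr18:59899746-59899995, plus strand): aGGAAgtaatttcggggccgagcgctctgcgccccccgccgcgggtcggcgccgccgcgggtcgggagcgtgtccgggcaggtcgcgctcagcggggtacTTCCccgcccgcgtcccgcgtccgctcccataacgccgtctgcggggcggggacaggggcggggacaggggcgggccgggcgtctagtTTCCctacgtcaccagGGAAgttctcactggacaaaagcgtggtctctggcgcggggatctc
BCL2A1 (chr15:79971197-79971446, minus strand): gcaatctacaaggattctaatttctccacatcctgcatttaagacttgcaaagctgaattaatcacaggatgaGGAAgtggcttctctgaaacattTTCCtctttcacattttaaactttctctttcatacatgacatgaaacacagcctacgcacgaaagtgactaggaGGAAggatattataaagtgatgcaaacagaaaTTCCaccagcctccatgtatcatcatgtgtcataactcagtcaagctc

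The PMAIP1 stretch held 3 matches to GGAAGT, at -249, -152 and -46, while BCL2A1 held 1 at -177 and the BCL2 window none. GGAAGT was also present at BBC3, which was higher with endo-EF, and at BAK1 and BCL2L1, which were lower. It was thus present at genes changed in both directions, and its part in the changes was not tested. CCGGAAGT occurred in 1 member window only, at position 10 from 1 annotated start of BCL2L1. The window of another BCL2L1 start (chr20:31722819-31723118) held neither CCGGAAGT nor GGAAGT. BID also had more than 1 annotated start, and none of its windows held GGAAGT. The windows of BAX and BCL2L11 held no GGAA on either strand, and no member window held GGAAGGAA. These are matches of letters in a short window and say nothing of binding there or elsewhere at the locus.

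On the scale of CPM per kb of exon, which allows different genes to be set side by side, PMAIP1 and MCL1 led the family in every condition. In iLuc they stood at 50.4 ± 6.32 and 43.9 ± 5.60 CPM per kb (mean ± SD, n = 3), and their libraries overlapped. Depletion separated them: in iEF, PMAIP1 reached 222 ± 31.0 against 61.9 ± 4.98 for MCL1, and PMAIP1 moved from rank 740 to rank 105 among 27879 genes with a known length. BID followed in iLuc at 8.06 ± 0.66 CPM per kb, ahead of BCL2L1 (6.56 ± 0.96), BAX (4.56 ± 0.12), BCL2 (3.74 ± 0.21) and BAK1 (3.09 ± 0.25), with no overlap between neighbours in this stretch of the order. BBC3 (0.973 ± 0.0819) and BCL2L11 (0.921 ± 0.0165) overlapped each other, and BCL2A1 was last at 0.0881 ± 0.0257. In iEF, BCL2L1 moved above BID (18.1 ± 2.15 against 9.05 ± 1.73), BAK1 (5.20 ± 0.11) moved above BAX (4.79 ± 0.23), and BCL2 (2.19 ± 0.0965) overlapped BCL2L11 (2.06 ± 0.31). The scale depends on the annotated exons, which add up to 12612 bases for BCL2 and 995 for BCL2A1. In WT-EF the upper part of the order was PMAIP1, MCL1, BCL2L1, BID and BCL2, with BCL2L1 and BID overlapping.

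**Figure D1:**
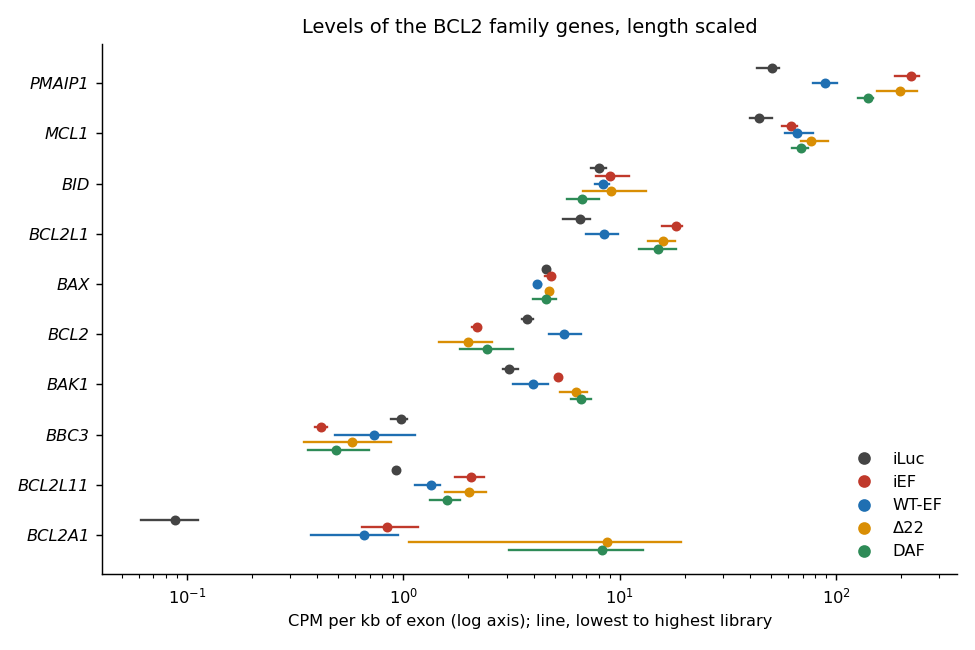
Level of each gene in CPM per kb of exon (log axis), with dots for the mean of 3 libraries and lines from the lowest to the highest library, coloured by condition. PMAIP1 and MCL1 lie above the other genes throughout, PMAIP1 spreads from 50.4 in iLuc to 222 in iEF, and BCL2A1 covers the widest range.

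Of the 10 genes, 8 differed between iLuc and iEF at an adjusted p under 0.05, a share to be read against 41.7% of all tested genes called in the same comparison. BCL2 and BBC3 were higher with endo-EF, and BCL2L1, MCL1, BCL2A1, BAK1, PMAIP1 and BCL2L11 were lower. The median log2 fold change of the 10 genes was -0.62, against 0.04 over all tested genes. WT-EF against iEF gave 4 called genes (background 29.9%), DAF against iEF 2 (background 11.2%) and Δ22 against iEF 1 (background 1.3%). Their medians over the 10 genes were -0.19, 0.03 and -0.02, against -0.01, 0.00 and 0.01 over all tested genes. These 4 comparisons use the same 3 iEF libraries, so they are not independent of one another. In bulk RNA, fewer cells of a kind and less RNA per cell cannot be told apart.

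**Figure D2:**
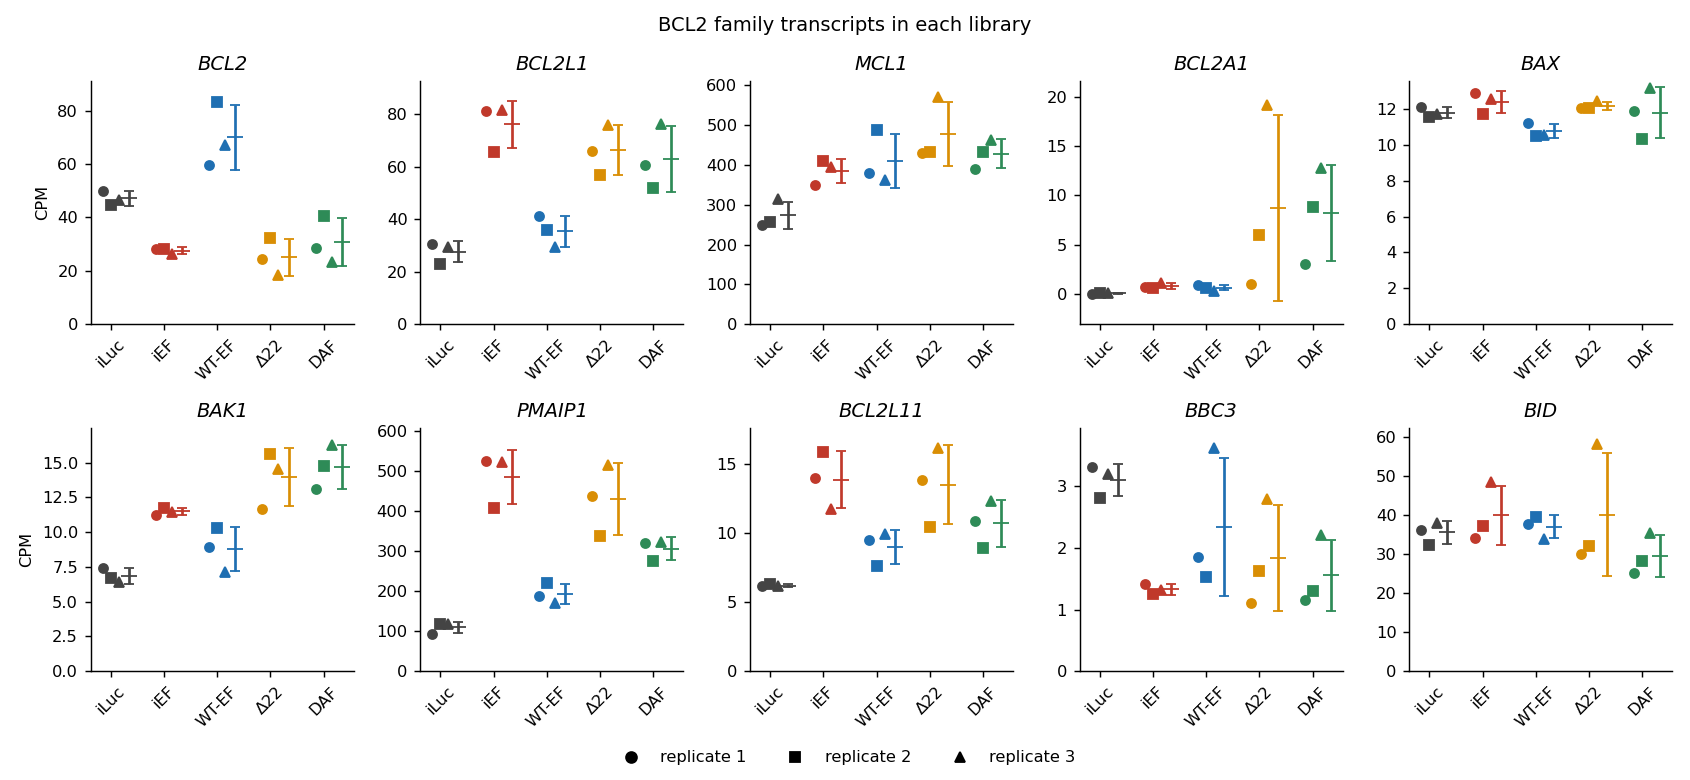
CPM of each gene in each of the 15 libraries, 1 panel a gene with its own linear axis, with marker shape giving the replicate number and the bar beside each condition the mean ± SD of 3 libraries. BCL2 is highest in WT-EF, PMAIP1 steps down from 485 CPM in iEF to 110 in iLuc, BAX is nearly level, and BCL2A1 is above iEF in all 3 libraries of DAF and in 2 of Δ22.

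Among the anti-apoptotic genes, BCL2 was the only one that wildtype EWS/FLI raised against iEF, whether endogenous or from the cDNA. BCL2 (ENSG00000171791, GRCh37 chr18:60790579-60987361, minus strand) encodes the founding anti-apoptotic protein of the family. Its level was 50.0, 44.7 and 46.7 CPM in the iLuc libraries and 28.3, 28.3 and 26.2 CPM in iEF. The WT-EF libraries gave 59.5, 83.3 and 67.1 CPM, all above every library of the other conditions. Those of Δ22 gave 24.3, 32.5 and 18.4 CPM and those of DAF 28.7, 40.7 and 23.1 CPM, both spreading across the narrow range of iEF. BCL2 rose by 1.72-fold in iLuc over iEF (log2 0.78, SE 0.16, edgeR adjusted p = 0.000838) and by 2.52-fold in WT-EF over iEF (log2 1.33, SE 0.16, adjusted p = 1.51e-05). It did not pass in DAF (log2 0.13, 95% interval -0.20 to 0.46) or Δ22 (log2 -0.17, 95% interval -0.50 to 0.17). Set directly against DAF, WT-EF was higher by log2 1.20 (SE 0.16, adjusted p = 5.62e-05). WT-EF also exceeded iLuc by log2 0.55 (SE 0.15, adjusted p = 0.0207). That last call was lost without the replicate block (adjusted p = 0.0660), without iLuc replicate 2 (0.0978) and without WT-EF replicate 2 (0.0754).

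BCL2L1, which encodes the anti-apoptotic BCL-xL and by splicing the pro-apoptotic BCL-xS, moved the other way. The gene (ENSG00000171552, GRCh37 chr20:30252255-30311792, minus strand) gave 81.1, 65.7 and 81.4 CPM in iEF and 30.5, 22.9 and 29.2 CPM in iLuc. WT-EF libraries stood at 41.1, 35.8 and 29.2 CPM, overlapping iLuc and far under iEF. Δ22, at 66.1, 56.9 and 75.8 CPM, and DAF, at 60.4, 51.7 and 76.3 CPM, overlapped iEF. BCL2L1 fell by 1.47 on the log2 scale in iLuc (SE 0.14, edgeR adjusted p = 6.41e-07) and by 1.09 in WT-EF (SE 0.13, adjusted p = 2.31e-05), both against iEF. In DAF the difference from iEF was log2 -0.28 (95% interval -0.56 to 0.00251, adjusted p = 0.217) and became a call when WT-EF replicate 3 was left out (adjusted p = 0.0395). WT-EF was lower than DAF by log2 -0.81 (adjusted p = 0.000385). WT-EF stood above iLuc by log2 0.38 (95% interval 0.09 to 0.67, adjusted p = 0.0636), which passed in 9 of the 22 alternatives. These were DESeq2 size factors (0.0396), DESeq2 (0.0242), DESeq2 on the ComBat-adjusted counts (0.0367), no filter (0.0132), filterByExpr (0.0438) and the fits without iEF replicate 2 (0.0447), WT-EF replicate 3 (0.000182), Δ22 replicate 2 (0.0499) or DAF replicate 2 (0.0485). Gene counts do not separate these splice products. An antisense RNA, ABALON, shares 41.3% of the exonic bases of BCL2L1 and is no row of the count table, and the strand setting of the counting is not given in the sources used here.

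The opposite course of BCL2 and BCL2L1 was visible within single libraries, in a ratio chosen after the values were seen. The log2 ratio of BCL2 to BCL2L1 counts was 0.71, 0.97 and 0.68 in iLuc and 0.54, 1.22 and 1.20 in WT-EF. In iEF it was -1.52, -1.21 and -1.64, in Δ22 -1.44, -0.81 and -2.04, and in DAF -1.07, -0.34 and -1.72. Every library with wildtype EWS/FLI thus lay above 0 and every other library below it.

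MCL1 (ENSG00000143384, GRCh37 chr1:150533371-150552214, minus strand), which encodes a short-lived anti-apoptotic protein, was lowest in iLuc. It gave 249, 258 and 313 CPM there, against 351, 410 and 395 CPM in iEF, 380, 487 and 362 in WT-EF, 429, 434 and 571 in Δ22 and 389, 434 and 463 in DAF. No iLuc library reached any library of another condition. Among the others, the Δ22 libraries lay just above those of iEF, and WT-EF and DAF overlapped both. MCL1 fell by 0.50 on the log2 scale in iLuc against iEF (SE 0.12, edgeR adjusted p = 0.00318). WT-EF did not lower it: the difference from iEF was log2 0.09 (95% interval -0.16 to 0.34), and WT-EF exceeded iLuc by log2 0.59 (SE 0.12, adjusted p = 0.00275). The Δ22 value, log2 0.31 over iEF, did not pass (adjusted p = 0.246), though it did with no filter on low counts (0.0488).

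BCL2A1 encodes the anti-apoptotic protein BFL-1 and is a textbook NF-kB target. The gene (ENSG00000140379, GRCh37 chr15:80253234-80263538, minus strand) had the lowest counts of the 10 genes in iLuc, iEF and WT-EF, and the largest fold differences. The 3 iLuc libraries held 2, 4 and 3 reads, or 0.0611, 0.112 and 0.0895 CPM. In iEF the level was 0.709, 0.641 and 1.16 CPM and in WT-EF 0.941, 0.661 and 0.373 CPM. Δ22 gave 1.05, 5.94 and 19.2 CPM and DAF 3.06, 8.86 and 12.7 CPM. Every DAF library was above every iEF library, while Δ22 replicate 1 fell inside the iEF range, and replicate 3 was highest in both constructs. BCL2A1 was lower in iLuc than in iEF (log2 -3.28, SE 0.99, edgeR adjusted p = 0.0152). The summed counts, 86 in iEF and 9 in iLuc, gave a library-size-scaled ratio of 9.53 (95% interval 4.80 to 21.6, counting error only).

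Against iEF, BCL2A1 rose in DAF (log2 3.14, SE 0.63, edgeR adjusted p = 0.00488) and in Δ22 (log2 2.96, SE 0.64, adjusted p = 0.0351). WT-EF did not differ detectably from iEF (log2 -0.18, 95% interval -1.70 to 1.34), exceeded iLuc (log2 3.10, SE 1.02, adjusted p = 0.0448) and was lower than DAF (log2 -3.33, SE 0.65, adjusted p = 0.00132). The DAF calls held in all 22 alternatives. The Δ22 call did not: without the replicate block the adjusted p was 0.0598, and it rose to 0.214 without Δ22 replicate 3 (log2 2.00), 0.130 without Δ22 replicate 2, 0.0786, 0.127 and 0.181 without iEF replicate 1, 2 or 3, 0.0551 without WT-EF replicate 2 and 0.0531 without DAF replicate 3. The difference between iLuc and iEF was lost without iLuc replicate 3 (adjusted p = 0.0857) and by DESeq2 on the ComBat-adjusted counts (0.183). By DESeq2 on the ComBat-adjusted counts the Δ22 call was lost too (0.0866). The call between WT-EF and iLuc was lost by DESeq2 on those counts (log2 1.63, adjusted p = 0.203), without the block (0.0974) and without each of 10 libraries, at 0.0849, 0.0983 and 0.168 without iLuc replicate 1, 2 or 3, 0.159 and 0.0957 without WT-EF replicate 1 or 2, and 0.0503 to 0.0543 without iEF replicate 2 or 3, Δ22 replicate 2 or DAF replicate 1 or 3.

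Of the effector genes, BAX showed no called difference and BAK1 did. BAX (ENSG00000087088, GRCh37 chr19:49458072-49465055, plus strand) stayed between 10.3 and 13.1 CPM in all 15 libraries. Its mean was 11.8 ± 0.31 CPM in iLuc, 12.4 ± 0.59 in iEF, 10.8 ± 0.39 in WT-EF, 12.2 ± 0.23 in Δ22 and 11.8 ± 1.42 in DAF. None of its 7 differences passed the edgeR test, and for iLuc against iEF the 95% interval ran from log2 -0.30 to 0.16, or from 0.813-fold to 1.12-fold. All WT-EF libraries lay below those of iEF (log2 -0.20, 95% interval -0.43 to 0.03) and of iLuc (log2 -0.13, 95% interval -0.36 to 0.10). The count of BAX differences at an unadjusted p under 0.05 was 0 of 7, and DESeq2 called 0 of 7.

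BAK1 (ENSG00000030110, GRCh37 chr6:33540324-33548070, minus strand), the other pore former, gave 7.46, 6.68 and 6.39 CPM in iLuc and 11.3, 11.7 and 11.5 CPM in iEF. The WT-EF libraries, at 8.92, 10.3 and 7.14 CPM, lay below iEF and overlapped iLuc in replicate 3, while Δ22 (11.7, 15.6 and 14.6 CPM) and DAF (13.1, 14.7 and 16.3 CPM) reached the highest values. BAK1 fell by 0.75 on the log2 scale in iLuc against iEF (SE 0.15, edgeR adjusted p = 0.00087). WT-EF stood at log2 -0.39 against iEF (95% interval -0.71 to -0.08, adjusted p = 0.0600), which passed without WT-EF replicate 2 (0.0448), with filterByExpr (0.0466) and by DESeq2 on the ComBat-adjusted counts (0.0162). It stood at log2 0.36 over iLuc (adjusted p = 0.118), which passed without WT-EF replicate 3 (0.0107), by DESeq2 (0.0434) and by DESeq2 on the ComBat-adjusted counts (0.0163). All 3 DAF libraries were above those of iEF (log2 0.35, adjusted p = 0.151), a difference called by DESeq2 on the ComBat-adjusted counts (0.0386). DAF exceeded WT-EF, with WT-EF lower by log2 -0.75 (SE 0.15, adjusted p = 0.00149).

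PMAIP1, which encodes NOXA, the BH3-only partner of MCL1, fell in steps with the constructs. The gene (ENSG00000141682, GRCh37 chr18:57567228-57571537, plus strand) gave 526, 407 and 523 CPM in iEF and 94.3, 117 and 119 CPM in iLuc. Between them lay Δ22 (438, 337 and 516 CPM), DAF (321, 275 and 324 CPM) and WT-EF (188, 221 and 171 CPM). Except for iEF and Δ22, neighbours in this order did not overlap. Against iEF, PMAIP1 fell by 2.13 on the log2 scale in iLuc (SE 0.15, edgeR adjusted p = 5.96e-08), by 1.31 in WT-EF (SE 0.15, adjusted p = 1.16e-05) and by 0.66 in DAF (SE 0.15, adjusted p = 0.00974). Δ22 did not pass (log2 -0.18, 95% interval -0.49 to 0.14). WT-EF remained above iLuc by log2 0.82 (adjusted p = 0.00142) and below DAF by log2 -0.65 (adjusted p = 0.00379). The step from Δ22 to DAF, log2 -0.48 (95% interval -0.80 to -0.17), did not pass over all genes (adjusted p = 0.170), and it did pass when only the 6 libraries of the pair were fitted (7.27e-06). The DAF call against iEF was lost without iEF replicate 1 (0.0705) or DAF replicate 2 (0.0697).

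BCL2L11 encodes BIM, which binds every anti-apoptotic member and activates BAX. The gene (ENSG00000153094, GRCh37 chr2:111876955-111926021, plus strand) gave 14.0, 15.9 and 11.7 CPM in iEF against 6.14, 6.34 and 6.15 CPM in iLuc. WT-EF gave 9.50, 7.61 and 9.96 CPM, Δ22 13.9, 10.5 and 16.2 CPM and DAF 10.9, 8.92 and 12.3 CPM. The iLuc libraries were below all others, and WT-EF lay below iEF without overlap. BCL2L11 fell by 1.17 on the log2 scale in iLuc (SE 0.17, edgeR adjusted p = 5.61e-05) and by 0.64 in WT-EF (SE 0.17, adjusted p = 0.00937), both against iEF. The WT-EF call was lost without iEF replicate 2 (0.0854) or WT-EF replicate 2 (0.0523). WT-EF exceeded iLuc by log2 0.53 (adjusted p = 0.0415), a call lost without the block (0.0531), with only the 6 libraries (0.0803) and without any one of 7 libraries: iLuc replicate 1 (0.109) or 3 (0.0947), iEF replicate 1 (0.0544), WT-EF replicate 1 (0.0970), 2 (0.0614) or 3 (0.0596), or DAF replicate 1 (0.0521). The lncRNA MIR4435-2HG lies across the gene on the opposite strand and shares 10.8% of its exonic bases. That RNA gave 16.7 to 20.6 CPM in iLuc and 35.2 to 42.8 CPM in iEF, the same direction as BCL2L11, and its part in the BCL2L11 count was not tested.

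BBC3, which encodes PUMA, was the one of the 4 listed BH3-only genes that was higher with endo-EF. Its counts were low (33 to 136 reads per library). The gene (ENSG00000105327, GRCh37 chr19:47724079-47736023, minus strand) gave 3.30, 2.80 and 3.19 CPM in iLuc and 1.42, 1.25 and 1.31 CPM in iEF. WT-EF gave 1.86, 1.53 and 3.62 CPM, Δ22 1.11, 1.62 and 2.79 CPM and DAF 1.16, 1.29 and 2.21 CPM, with replicate 3 the highest in each. BBC3 rose by log2 1.22 in iLuc over iEF (SE 0.27, edgeR adjusted p = 0.00209). In WT-EF all 3 libraries were above all 3 of iEF, yet the difference did not pass (log2 0.73, 95% interval 0.14 to 1.32, adjusted p = 0.0612). It did pass in 8 of the 22 alternatives: DESeq2 size factors (0.0462), DESeq2 (0.0344), DESeq2 on the ComBat-adjusted counts (0.0443), no filter (0.0381), filterByExpr (0.0464), and without iLuc replicate 3 (0.0468), WT-EF replicate 2 (0.0453) or Δ22 replicate 1 (0.0463).

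BID (ENSG00000015475, GRCh37 chr22:18216904-18257536, minus strand), which caspase-8 cleaves to link death receptors to mitochondria, showed no called difference in the 7 comparisons by the edgeR fit over all libraries or by DESeq2, and 3 at an unadjusted p under 0.05. Its means were 35.6 ± 2.91 CPM in iLuc, 40.0 ± 7.64 in iEF, 37.1 ± 2.90 in WT-EF, 40.2 ± 15.7 in Δ22 and 29.6 ± 5.34 in DAF. The wide SD of Δ22 came from replicate 3 at 58.3 CPM, against 30.1 and 32.2 CPM in its fellows. DAF against iEF stood at log2 -0.43 (95% interval -0.79 to -0.08, adjusted p = 0.120), and passed without WT-EF replicate 3 (0.0338) or Δ22 replicate 3 (0.0463), with no filter (0.0217) and with only the 6 libraries (0.0129). WT-EF against DAF, log2 0.36 (adjusted p = 0.132), passed without WT-EF replicate 3 (0.00719) and with no filter (0.0489). DAF against Δ22, log2 -0.41 (adjusted p = 0.378), passed with only the 6 libraries (0.00531).

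**Figure D3:**
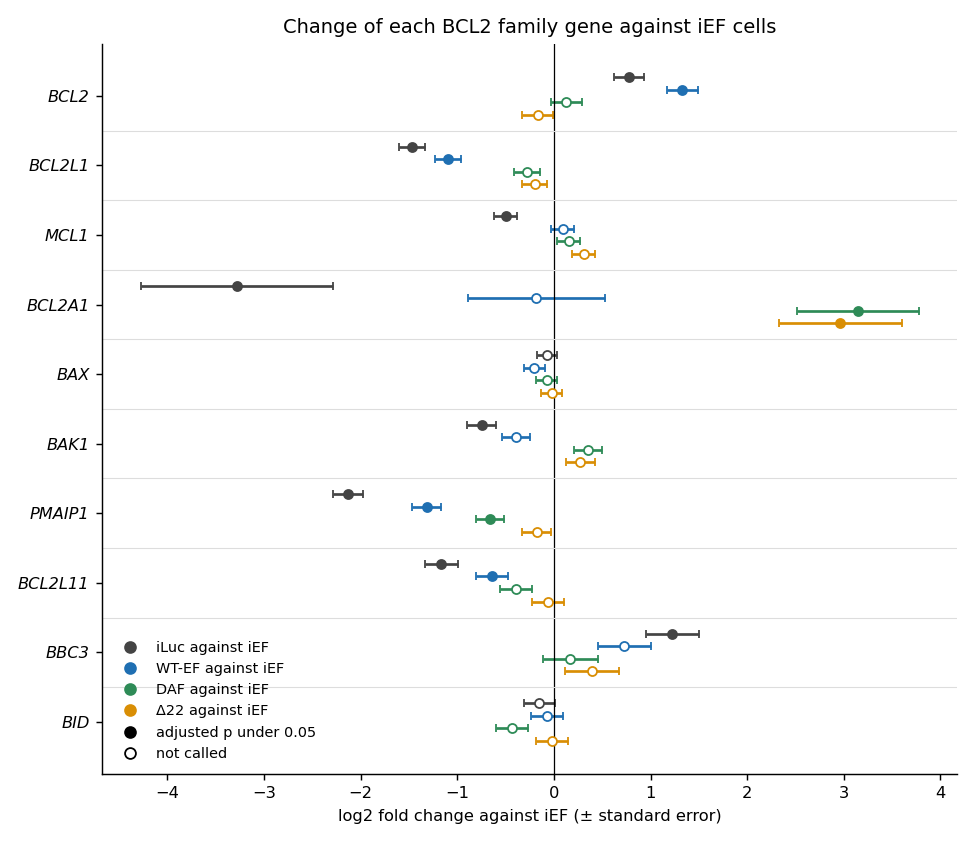
Log2 fold change against iEF (x axis) of each gene in iLuc, WT-EF, DAF and Δ22, with bars of ± 1 standard error and filled points for an adjusted p under 0.05. In iLuc 8 of the 10 points are filled, BCL2L1 and PMAIP1 lie left of 0 in iLuc and WT-EF alike, and only BCL2A1 is filled in Δ22.

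The comparisons between rescued conditions separated the constructs further. WT-EF differed from DAF in 5 of the 10 genes (background 28.5%): BCL2 was higher with WT-EF, and BCL2L1, BCL2A1, BAK1 and PMAIP1 were lower. The median over the 10 genes was log2 -0.19, against -0.01 over all tested genes. WT-EF differed from iLuc in 5 genes (background 19.7%), all higher with WT-EF: BCL2, MCL1, BCL2A1, PMAIP1 and BCL2L11. The median there was log2 0.45, against -0.01 over all genes. For MCL1, BCL2A1, PMAIP1 and BCL2L11, iLuc was also lower than iEF, so WT-EF left them above the level kept by endo-EF, while BCL2 exceeded that level in the direction endo-EF took it. DAF differed from Δ22 in none of the 10 genes by edgeR (background 1.33%, median log2 -0.12 against -0.02 over all genes). At an unadjusted p under 0.05 PMAIP1 and BID, 2 of the 10, stood apart there, and their 95% intervals (log2 -0.80 to -0.17 and -0.76 to -0.05) did not reach 0. DESeq2 on the deposited counts called none of the 10 either, and DESeq2 on the ComBat-adjusted counts called PMAIP1 (adjusted p = 0.0249). With no filter PMAIP1 was called (0.000774), and with only the 6 libraries PMAIP1, BID and BCL2 (log2 0.32, adjusted p = 0.00588) were.

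Ratios of a pro-apoptotic to an anti-apoptotic transcript, taken within a library, are free of library size but carry no scale of protein. The log2 ratio of BAX to BCL2 was -2.04, -1.96 and -1.99 in iLuc, -1.13, -1.27 and -1.06 in iEF and -2.41, -2.99 and -2.67 in WT-EF. Δ22 (-1.01, -1.43 and -0.57) overlapped iEF, and the DAF libraries, at -1.27, -1.98 and -0.82, ran from the iLuc level to above iEF. As BAX varied little, this ratio mostly followed BCL2. The log2 ratio of PMAIP1 to MCL1 was -1.40, -1.13 and -1.39 in iLuc, -1.02, -1.14 and -1.08 in WT-EF and 0.58, -0.01 and 0.40 in iEF. The Δ22 libraries (0.03, -0.36 and -0.15) overlapped iEF, and those of DAF (-0.28, -0.66 and -0.51) lay between iEF and WT-EF. PMAIP1 counts thus exceeded MCL1 counts in 2 libraries of iEF and 1 of Δ22. These counts are not scaled to exon length, 2186 bases for PMAIP1 and 6222 for MCL1. Per kb of exon, the mean of PMAIP1 was above that of MCL1 in every condition. The ratio of BCL2L11 to MCL1 averaged -5.45 ± 0.19 in iLuc, -4.80 ± 0.23 in iEF, -5.50 ± 0.44 in WT-EF, -5.15 ± 0.21 in Δ22 and -5.33 ± 0.24 in DAF. That of BCL2L11 to BCL2L1, both of which fell with wildtype EWS/FLI, overlapped between iLuc (-2.14 ± 0.25) and iEF (-2.46 ± 0.38).

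**Figure D4:**
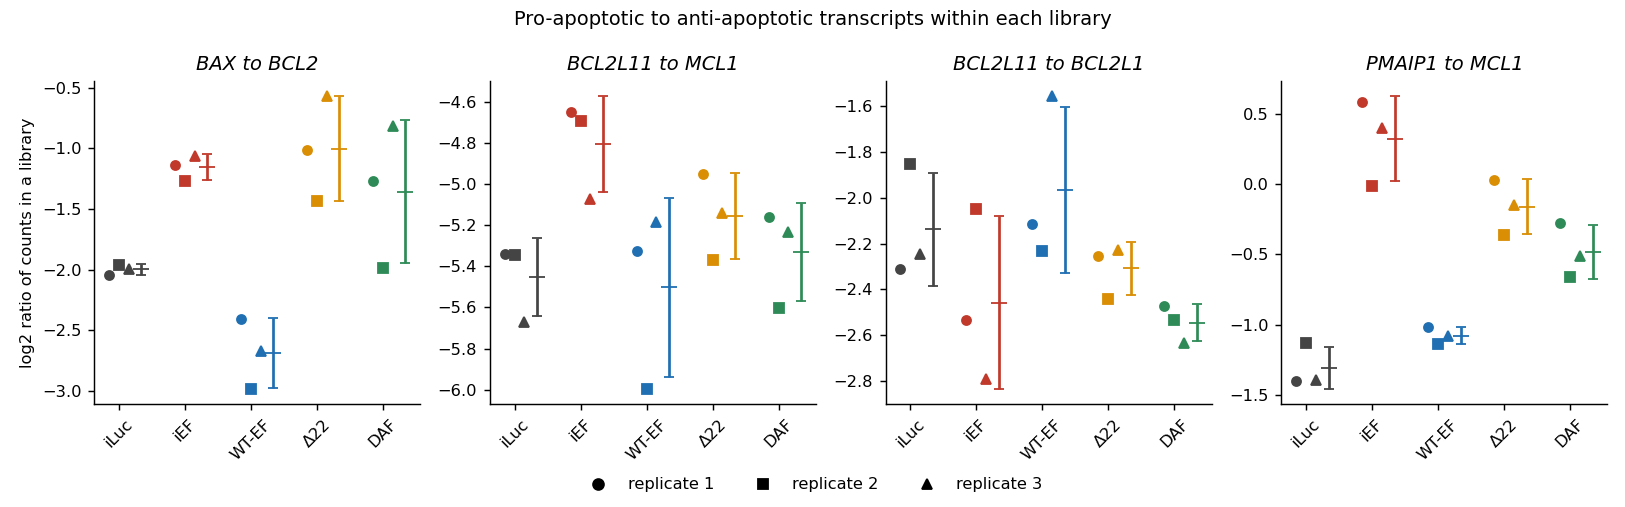
Log2 ratio of counts of a pro-apoptotic to an anti-apoptotic gene in each library (y axis), by condition, with marker shape for the replicate and bars for mean ± SD of 3 libraries. BAX to BCL2 is lowest in WT-EF (mean -2.69), PMAIP1 to MCL1 separates iLuc and WT-EF from iEF, and BCL2L11 to BCL2L1 overlaps between iLuc and iEF.

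Across the 15 libraries, several of the genes followed one another in log2 CPM, which is a description over libraries that share conditions and replicate sets. Pearson's r was 0.94 for BCL2L1 with PMAIP1, 0.91 for PMAIP1 with BCL2L11, 0.87 for BCL2A1 with BAK1 and -0.82 for BCL2 with BCL2L1. Among 13178 other genes averaging at least 50 counts, the closest to PMAIP1 was BDNF, a neurotrophin (r = 0.99), and the closest to BCL2L1 was SUSD1 (r = 0.99). BCL2 was nearest to the ephrin receptor EPHA5 (r = 0.96), BAK1 to TBC1D23 (0.97), BCL2L11 to the formin FMNL2 (0.96), BCL2A1 to CD93 (0.96), BBC3 to DNPH1 (0.93) and MCL1 to RAB9A (0.93). BID was nearest to PPIF, the mitochondrial cyclophilin D (r = 0.85), and BAX, which varied least, to MTHFD1L (0.81).

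BCL2A1 was set beside other NF-kB target genes, and 16 of a list of 17 were matched. In iLuc against iEF 15 of the 16 were lower and none higher (background 41.7%), with a median of log2 -3.39 against 0.04 over all genes. CXCL8, a neutrophil chemokine, was 16.4 ± 2.07 CPM in iLuc and 1274 ± 293 in iEF (log2 -6.24, edgeR adjusted p = 1.33e-07). CXCL1, a related chemokine, fell by 6.63 on the log2 scale (adjusted p = 1.17e-05) and ICAM1, an adhesion molecule, changed by log2 -5.03 (adjusted p = 0.000764). In WT-EF 8 of the 16 were lower than in iEF and none higher (background 29.9%, median log2 -1.73). By edgeR none of the 16 was called in Δ22 or DAF against iEF (backgrounds 1.3% and 11.2%, medians log2 0.60 and 0.20). At an unadjusted p under 0.05 there were 3 and 0, and DESeq2 called 0 in both. Library by library, the median log2 CPM of the 16 was 1.47 to 1.64 in iLuc, 2.37 to 3.14 in WT-EF and 3.998 to 5.02 in iEF. Replicate 3 gave the highest value in Δ22 (6.61, against 3.79 and 4.33) and in DAF (6.02, against 4.13 and 4.36), the same libraries in which BCL2A1 peaked. BIRC3, a caspase-regulating gene that is itself 1 of the 16, reached 703 CPM in Δ22 replicate 3 and 40.1 and 130 CPM in its fellows. Pearson's r between BCL2A1 and the list median was 0.83 over the 15 libraries. At like list medians the DAF libraries held more BCL2A1 than those of iEF, and so did Δ22 replicate 2 (median 4.33, 5.94 CPM BCL2A1). Δ22 replicate 1 (median 3.79, 1.05 CPM BCL2A1) lay within the BCL2A1 range of iEF.

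**Figure D5:**
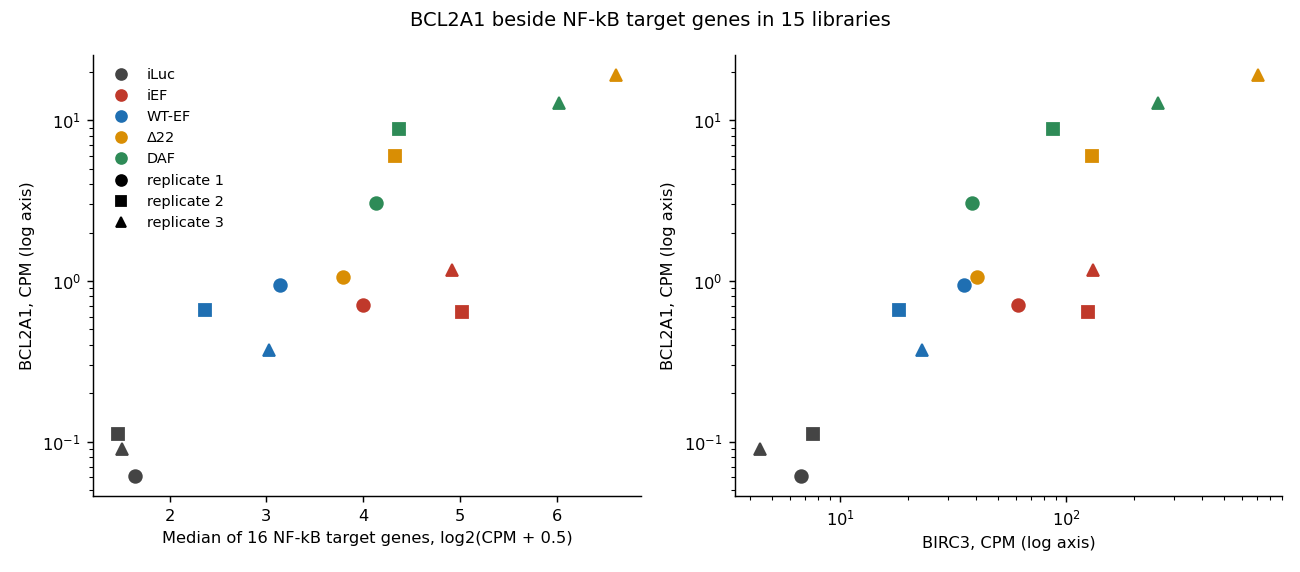
BCL2A1 level (CPM, log axis) in each of the 15 libraries against the median log2 CPM of 16 NF-kB target genes (left) and against BIRC3 (CPM, log axis, right), with colour for condition and shape for replicate. The iLuc libraries sit lowest on both axes and Δ22 replicate 3 (19.2 CPM BCL2A1, 703 CPM BIRC3) highest. At similar list medians, iEF libraries lie below DAF libraries and Δ22 replicate 2.

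Other BCL2 family genes moved in both directions. Of 12, 4 were higher and 5 lower in iLuc against iEF (median log2 -0.25), where 41.7% of all tested genes were called. BOK, a BAX-like gene, was 1.68 ± 0.54 CPM in iLuc and 10.9 ± 1.01 in iEF (log2 -2.71, edgeR adjusted p = 2.48e-07). BAD, a BH3-only gene under survival signalling, and BCL2L2, which encodes anti-apoptotic BCL-w, stood at log2 -0.68 and -0.61. BMF, a BH3-only gene, was higher by log2 0.67 (adjusted p = 0.00761) and BCL2L12 by 0.39. The counts were the same in WT-EF against iEF, 4 higher and 5 lower (background 29.9%), but not for the same genes. In DAF 1 was higher and 0 lower (background 11.2%). By edgeR and by DESeq2 none was called in Δ22 (edgeR background 1.3%), where 2 had an unadjusted p under 0.05. BMF (log2 0.13, adjusted p = 0.672) and BCL2L13 (log2 -0.18, adjusted p = 0.172) were not called in WT-EF against iEF. HRK (log2 2.41, adjusted p = 0.00028) and BNIP3 (log2 -0.58, adjusted p = 0.00862) were called there and not in iLuc against iEF. In WT-EF BOK was 6.10 ± 2.02 CPM, lower than iEF (log2 -0.85, adjusted p = 0.00566) and higher than iLuc (log2 1.86, adjusted p = 7.19e-05).

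Downstream of the mitochondria, 5 of 17 apoptosome, caspase and inhibitor genes were higher and 8 lower in iLuc against iEF (median log2 -0.36, against 0.04 over all genes here and in the lists that follow). The share of all tested genes called in that comparison, 41.7%, is the background for these lists too. CYCS, cytochrome c itself, was 581 ± 54.7 CPM in iLuc and 385 ± 43.9 in iEF (log2 0.59, edgeR adjusted p = 0.000341), and AIFM1, another mitochondrial death factor, rose by log2 1.03. DFFB, the nuclease that cuts DNA in apoptosis, rose by log2 1.07. BIRC2 and BIRC3, the adjacent cIAP genes, stood at log2 -2.67 and -3.92, and BIRC3 is also an NF-kB target. WT-EF lowered BIRC2 against iEF (log2 -1.75, adjusted p = 5.66e-06). Of this list 4 were higher and 7 lower in WT-EF (background 29.9%) and 0 and 1 in DAF (background 11.2%). In Δ22 edgeR called none (background 1.3%), 2 had an unadjusted p under 0.05 and DESeq2 called 1.

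Of 16 genes of the outer mitochondrial membrane and partner proteins, 1 was higher (PPP3CA, a calcineurin subunit, log2 0.39) and 10 were lower in iLuc against iEF (median log2 -0.32). BAG1, a co-chaperone that binds BCL2, fell by 0.86 on the log2 scale, BCAP31, an endoplasmic reticulum partner, by 0.69 and the 14-3-3 gene YWHAQ by 0.60. WT-EF lowered 8 and raised none (background 29.9%). Of 14 tested death receptor genes, 2 were higher and 8 lower (median log2 -0.58). FAS, a death receptor, was higher in iLuc (log2 0.53, edgeR adjusted p = 0.0185), while TNFRSF1A, the TNF receptor, fell by 1.95 on the log2 scale. The TRAIL decoy receptor TNFRSF10D stood at log2 -1.57 and the TRAIL gene TNFSF10, under 1 CPM on average in both conditions, at -3.49. FASLG was too low to test.

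PMAIP1, BBC3, BAX and BID are also known as p53 targets, and other p53 targets did not move as one group. Of 17, 4 were higher and 7 lower in iLuc against iEF (background 41.7%, median log2 -0.34). CDKN1A, the cell cycle inhibitor p21, fell from 92.3 ± 16.1 CPM in iEF to 16.1 ± 1.86 in iLuc (log2 -2.52, edgeR adjusted p = 1.81e-08), TP53I3 fell by 3.49 on the log2 scale and PLK3 by 1.77. FDXR rose by log2 1.55, BTG2 by 1.09 and MDM2, the p53 ubiquitin ligase, by 0.67. Of 9 genes of the integrated stress response, which can drive PMAIP1 and BBC3, 2 were higher and 4 lower (median log2 -0.36). ASNS and TRIB3 rose by log2 1.63 and 1.14, and XBP1, ATF3 and PPP1R15A stood at log2 -1.86, -1.57 and -1.23. The lists share regulators and were chosen with earlier results of these data known, so these counts describe them and support nothing further.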

How the data were processed

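Total RNA of A673 cells was made into ScriptSeq libraries. Per the labels and the study's methods, the authors aligned reads to hg19 with STAR (2.5.1b in the submitters' processing notes) and counted them per gene with htseq-count (intersection-strict), and the deposited table holds whole-number counts for 15 libraries used here and 3 columns of other samples, not used. A second deposited table holds estimated counts, adjusted by the authors with ComBat for each set of replicates, and these were rounded to whole numbers for 1 alternative. A table of the authors' fold changes and p-values was not used. hg19 and GRCh37 are the same build.

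Genes averaging at least 1 count were fitted with edgeR 4.0.16 in R 4.3.3 (TMM, quasi-likelihood test, condition plus replicate number as a block) in 1 model over all 15 libraries, with Benjamini-Hochberg adjustment over 28793 genes and a threshold of 0.05. CPM used TMM-scaled library sizes, and 0.5 was added before log2 in descriptions. CPM per kb used exon unions of the annotation in GRCh37 coordinates. Intervals are 95%. Library totals of 28659475 to 41859880 (median 32943231) set the counting error, and TMM factors were 0.894 to 1.11. The fitting was tested on simulated data.

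The block follows the study's own batch adjustment by set of replicates. Deviations from the condition means, over 17653 genes, correlated at a median r of 0.16 in 30 pairs with the same number (-0.15 to 0.73) and -0.0819 in 60 pairs with different numbers, and 11 of 15 libraries correlated best with their own number. Replicates of a condition differed by more than sampling noise (chi-square per gene 12.9 to 83.2), so none was a copy of another library. That statistic cannot tell separate cultures from separate library preparations of one culture.

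The 10 members and all lists were chosen with earlier results of these data known. Besides the members, the text names FLI1, the cell type markers, in each list up to 3 called genes in each direction with the largest change in iLuc against iEF and a mean of at least 50 counts, and for each member the gene with the highest correlation. One gene that this rule names is not reported here. BOK, BMF, BIRC2 and BIRC3 in further comparisons, the genes BCL2L13, HRK and BNIP3, and the ratio of BCL2 to BCL2L1, were chosen after their values were seen. Alternatives were DESeq2 1.42.0 (on the counts, its size factors, and the ComBat-adjusted counts), no filter on low counts, filterByExpr, no replicate block, only the 6 libraries of a comparison, and leaving out each of the 15 libraries.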

Additional observations from a re-analysis of the deposited data

How the results depend on the processing

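Of 25 called differences of the 10 genes, 18 were called in all 22 alternatives, and of 550 values 39 missed the threshold and 0 changed direction. Without the replicate block 21 of the 25 were called and none of the other 45 was gained; the 4 lost are named with their values in the report, and the block changed no other call. The number of genes called ranged, leaving out 1 library, from 7 to 8 in iLuc against iEF, 3 to 5 in WT-EF against iEF, 0 to 1 in Δ22 against iEF, 1 to 4 in DAF against iEF, 2 to 6 in WT-EF against iLuc, 5 to 6 in WT-EF against DAF and 0 to 0 in DAF against Δ22. In Δ22 against iEF it was 0 by DESeq2 on the ComBat-adjusted counts, 0 without the replicate block and 2 with no filter. In WT-EF against iLuc it was 2 without the block, and in DAF against Δ22 it was 1 by DESeq2 on the ComBat-adjusted counts, 1 with no filter and 3 with only the 6 libraries. BCL2A1 was not called in iLuc against iEF by DESeq2 on the ComBat-adjusted counts (adjusted p = 0.183). The causes were not tested.

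Among the 45 differences that were not called, 26 values over 14 differences changed sign, none past the threshold, and 37 values passed the threshold in the same direction. BCL2A1 in DAF against Δ22 was -0.0781 without the replicate block, and BID in Δ22 against iEF was 0.00612 by DESeq2 on the ComBat-adjusted counts and 0.00463 without the block. The others came from leaving out 1 library, with log2 ranges of -0.22 to 0.00227 for BCL2L1, -0.38 to 1.15 for BCL2A1, -0.13 to 0.0468 for BAX and -0.039 to 0.16 for BAK1 in DAF against Δ22. In WT-EF against iEF they were -0.0574 to 0.26 for MCL1, -1.20 to 0.63 for BCL2A1 and -0.19 to 0.15 for BID. In Δ22 against iEF they were -0.0658 to 0.0149 for BAX, -0.25 to 0.15 for BCL2L11 and -0.28 to 0.12 for BID, and in DAF against iEF -0.16 to 0.0194 for BAX and -0.0812 to 0.38 for BBC3. MCL1 in WT-EF against DAF ran from -0.21 to 0.0928 and BID in WT-EF against iLuc from -0.0397 to 0.32. Counts under 50 in a library limit BCL2A1 and BBC3.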
